A study of Mus musculus with 14 samples.

Results

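The genes examined were the 8 that encode the mouse DNA methyltransferases, their cofactors and the Tet enzymes: Dnmt1, Dnmt3a, Dnmt3b, Dnmt3l, Uhrf1, Tet1, Tet2 and Tet3, of 22367 protein-coding genes in the annotation. They were chosen by name, and every methylated region (a peak of methyl-CpG-binding domain sequencing, MBD-seq) that overlapped a gene body or 2 kb on either side was assigned to its gene. On NCBI build 37 (mm9) they lie at chr9:20711650-20757317 (Dnmt1), chr12:3806007-3914443 (Dnmt3a), chr2:153475186-153513466 (Dnmt3b), chr10:77504692-77526367 (Dnmt3l), chr17:56442744-56462909 (Uhrf1), chr10:62267318-62361866 (Tet1), chr3:133126643-133207354 (Tet2) and chr6:83312367-83391672 (Tet3). Merging overlapping peaks of the 14 samples gave 66 regions at these genes of 153099 regions in the genome.

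Methylation of cytosine in CpG is set by Dnmt3a and Dnmt3b, helped by the catalytically inactive cofactor Dnmt3l, and is copied after replication by Dnmt1, which Uhrf1 brings to hemimethylated DNA. The Tet proteins oxidise methylcytosine and so open a route to demethylation. In most genes an active CpG-rich promoter is free of methylation whereas the transcribed body is methylated, so the place of a mark within a gene matters. A peak is a mark on DNA and not a level of expression, and the lack of a called peak does not show that methylation is absent.

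The samples were 4 clones of Aid+/+ iPS cells, 4 clones of Aid-/- iPS cells, 3 ES cell lines and 3 cultures of Aid+/+ MEFs (embryonic fibroblasts). The comparisons asked whether loss of Aid altered the methylome of iPS cells and how that methylome differed from those of the cells of origin and of ES cells. All iPS clones and MEFs were male and carried the Nanog-GFP reporter on a mixed C57BL6, DBA and 129S4 background, and Aid was disrupted in the Aid-/- clones. iPS clones were made from MEFs with retroviral reprogramming factors, were kept in puromycin and were taken at passage 6 on gelatin, MEFs were at passage 3, and the ES lines were RF8 (129SV in the labels and 129S4 in the study's methods, passage 19), MG1.19 (129Ola) and B6 ES (C57BL6). Each iPS sample is 1 clone, clone names group them into series, and whether clones of a series share an embryo is not stated, so p-values measure the spread between these samples. All 3 comparisons use the same 4 Aid+/+ iPS clones.

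Libraries held 6654272 to 19603100 tags after filtering and 33694 to 110943 peaks. The numbers of peaks were 69669 to 110943 in iPS clones, 35546 to 57893 in MEFs, and 58916, 33694 and 106385 in ES lines 1, 2 and 3, and the share of tags inside peaks was 49.6% to 62.5% in iPS clones against 19.2% to 27.4% in MEFs. A smaller list has fewer chances of a peak at any gene. As a check of the labels, a promoter peak was present at Zfp42 in 3 of 3 MEFs and at Nanog in 2 of 3 MEFs but in 0 of the 8 iPS clones. Of 8 pluripotency genes, 4 had a promoter peak in at least 1 MEF, 2 in at least 1 Aid+/+ clone and 0 in ES lines. Pou5f1 was 1 of those in the iPS clones, with a peak in all 8. By pyrosequencing, the paper found low methylation at the promoter of this gene in iPS cells of either genotype. The retroviral factors included this gene, and whether tags from the introduced copies entered the peak was not tested. Of 8 fibroblast genes, 2 had a promoter peak in an iPS clone of either genotype (Col1a1 and Fbln2) and 0 in a MEF. Fbln2 had its peak in 1 clone of each genotype. Over all genes, the shares with a promoter peak in at least 1 sample were 15.8% for Aid+/+ clones and 18.8% for Aid-/- clones. They were 15.1% for ES lines and 9.66% for MEFs. With 8 genes in a list, counts of 0 and 2 are near these shares and are a weak check of the labels.

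The stretches below show the sequence at regions on which the comparisons turn and, for contrast, 2 stretches just upstream of a first start where no peak was called. They are taken from the NCBI build 37 (mm9) genome on the strand of the gene, 5′ to 3′, with each CpG in capitals. Stretches were placed on the peak summit, or as near to it as an annotated untranslated region allowed (14 bases away for the Tet3 65.9 kb region). A region is named by the distance of its centre from the most 5′ start of its gene.
Dnmt1, 41.1 kb region (chr9:20715881-20716031, minus strand, 7 CpG): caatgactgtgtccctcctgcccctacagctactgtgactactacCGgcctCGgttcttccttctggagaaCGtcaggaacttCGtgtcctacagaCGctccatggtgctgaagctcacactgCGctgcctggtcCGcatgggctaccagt
Uhrf1, 8.8 kb region (chr17:56451540-56451690, plus strand, 7 CpG): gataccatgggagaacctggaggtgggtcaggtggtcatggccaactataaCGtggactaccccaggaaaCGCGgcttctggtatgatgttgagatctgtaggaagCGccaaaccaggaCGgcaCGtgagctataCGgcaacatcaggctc
Dnmt3b, 34.5 kb region (chr2:153509627-153509777, plus strand, 7 CpG): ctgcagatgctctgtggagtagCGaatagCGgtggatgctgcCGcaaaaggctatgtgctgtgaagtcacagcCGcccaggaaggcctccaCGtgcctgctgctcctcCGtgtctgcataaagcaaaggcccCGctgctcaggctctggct
Tet3, 71.1 kb region (chr6:83320539-83320689, minus strand, 7 CpG): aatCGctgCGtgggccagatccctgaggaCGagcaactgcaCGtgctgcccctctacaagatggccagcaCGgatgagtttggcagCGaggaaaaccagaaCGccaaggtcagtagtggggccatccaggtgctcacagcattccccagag
Tet3, 65.9 kb region (chr6:83325671-83325821, minus strand, 12 CpG): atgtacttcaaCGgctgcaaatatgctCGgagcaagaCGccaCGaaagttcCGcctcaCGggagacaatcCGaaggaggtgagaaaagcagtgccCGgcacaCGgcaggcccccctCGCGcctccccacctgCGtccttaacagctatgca
Tet1, 19.4 kb region (chr10:62342474-62342624, minus strand, 13 CpG): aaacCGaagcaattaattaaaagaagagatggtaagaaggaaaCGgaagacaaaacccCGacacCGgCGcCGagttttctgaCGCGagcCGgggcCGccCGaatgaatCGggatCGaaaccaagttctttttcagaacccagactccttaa
Tet1, upstream of the first start (chr10:62361867-62362016, minus strand, 2 CpG): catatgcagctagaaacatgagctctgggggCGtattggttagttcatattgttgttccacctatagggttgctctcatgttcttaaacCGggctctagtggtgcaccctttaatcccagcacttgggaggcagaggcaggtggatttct
Dnmt3b, upstream of the first start (chr2:153475036-153475185, plus strand, 18 CpG): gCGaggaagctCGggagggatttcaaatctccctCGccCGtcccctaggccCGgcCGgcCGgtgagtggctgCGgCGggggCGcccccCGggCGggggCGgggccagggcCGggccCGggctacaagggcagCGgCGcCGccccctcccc

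The promoters (1 kb on either side of the most 5′ start) held few peaks. No gene of the 8 had a promoter peak in every sample of any group, whereas the share of all protein-coding genes that did was 5.91% for Aid+/+ clones, 5.96% for Aid-/- clones, 1.86% for ES lines and 4.55% for MEFs. With 8 genes, a count of 0 is also close to these shares. Just 2 promoter peaks were called in single samples: at Dnmt3a in Aid-/- iPS clone 1 (12 tags, chr12:3804669-3805133, 1.11 kb before the start) and at Dnmt3l in ES line 1 (14 tags, chr10:77503704-77504361, 0.66 kb before the start overlapping the annotated gene Aire). Neither was called in another of the 14 samples. Genes with a promoter peak in at least 1 sample were thus 0 of 8 for Aid+/+ clones, 1 for Aid-/- clones, 1 for ES lines and 0 for MEFs, beside 15.8%, 18.8%, 15.1% and 9.66% of all genes, so these counts are not particular to the 8 genes.

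The promoter windows were richer in CpG than the gene bodies at 7 of 8 genes. They held 7.05 CpG per 100 bp at Tet2, 6.55 at Dnmt3b, 5.25 at Uhrf1, 5.20 at Dnmt3a, 4.30 at Tet3 and 3.90 at Dnmt1, against 0.841 to 1.87 over the bodies. Dnmt3l (1.60) and Tet1 (1.15) had the poorest promoters, and Tet1 was the exception. The 2 upstream stretches printed above show this contrast, with 18 CpG at Dnmt3b and 2 at Tet1.

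Tet1, the first of the Tet dioxygenases, had peaks at a second start. A pair of annotated protein-coding transcripts of Tet1 begin 19.1 kb inside the gene, and the region over that start (chr10:62342024-62342988, 3.11 CpG per 100 bp) held 71, 18, 38 and 33 tags in the Aid+/+ iPS clones, 24, 26, 25 and 35 in the Aid-/- clones and 128, 74 and 35 in the MEFs. In ES cells it was called in line 3 alone (82 tags). When the start of every protein-coding transcript was counted, 2 of the 8 genes (Tet1 and Dnmt3a) had a promoter peak in every sample of both iPS groups and of the MEFs, and 0 in ES cells, beside 9.76% of all genes in the wild-type clones, 9.69% in the Aid-/- clones, 6.92% in MEFs and 3.00% in ES cells.

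**Figure D1:**
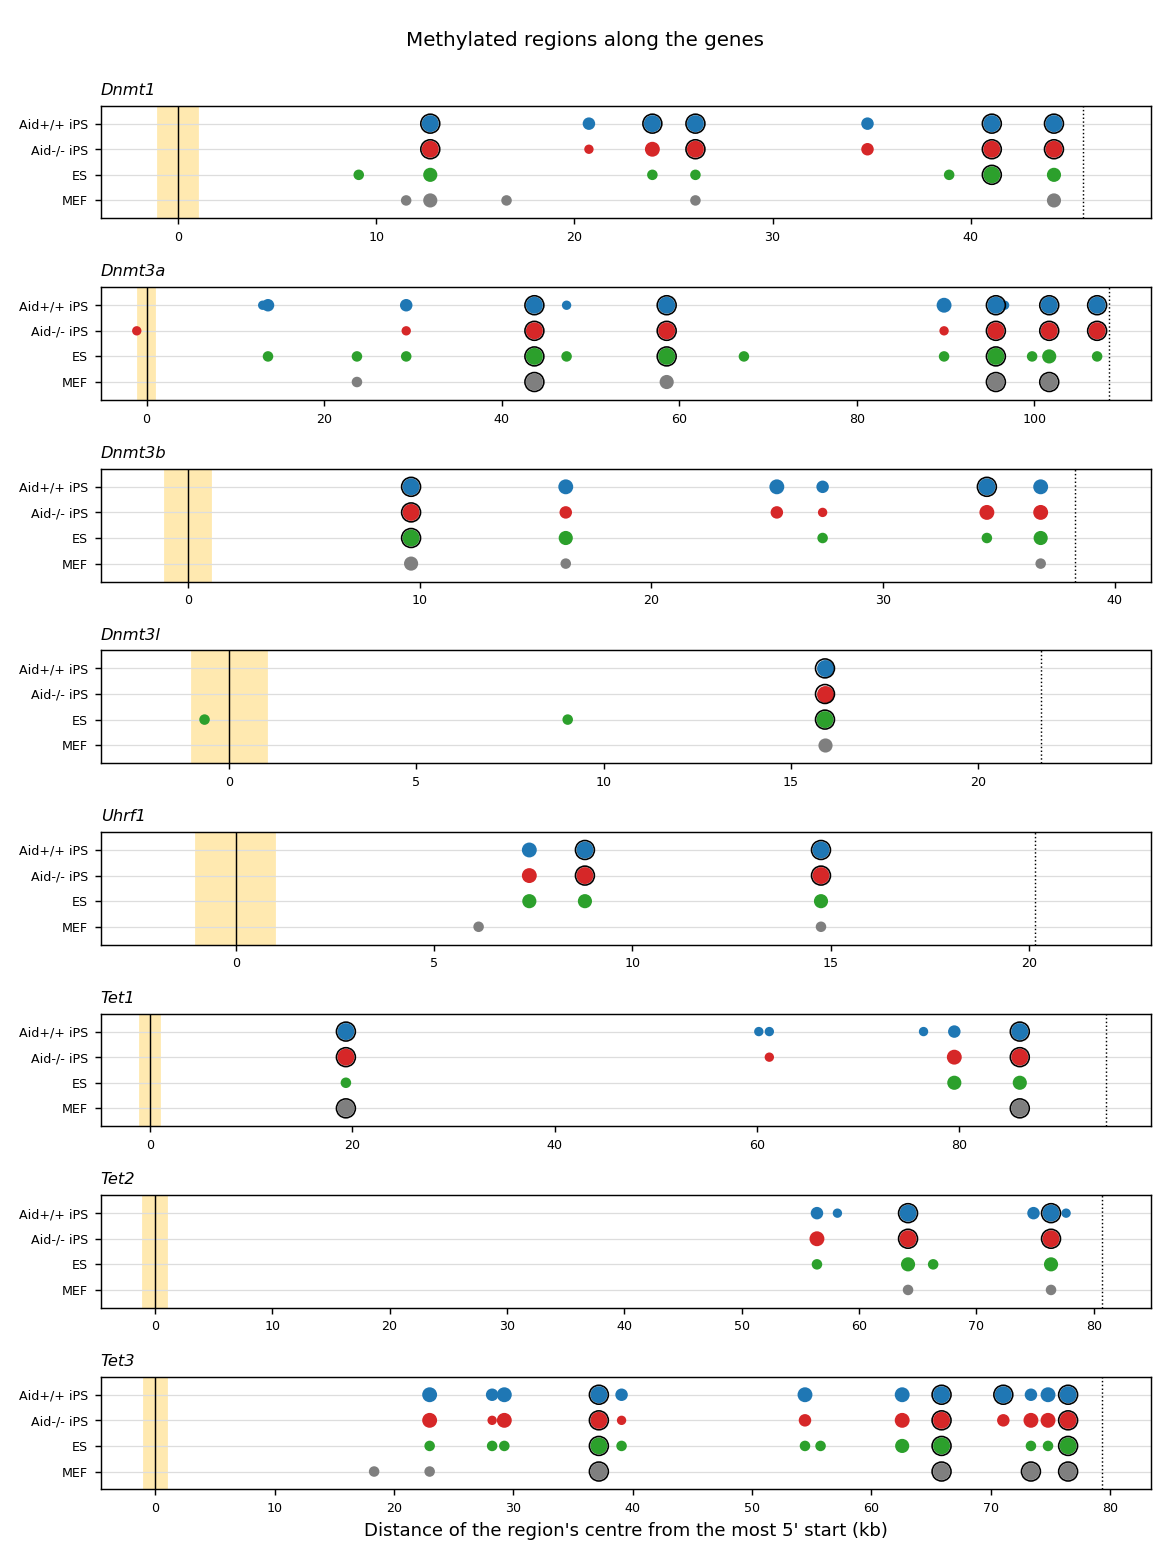
Regions along the 8 genes in each group. The x axis is the distance of a region's centre from the most 5′ start in kb, a dot's area is the share of the group's samples with a peak, a black ring marks a peak in every sample of the group, the shaded band is the promoter and the dotted line the end of the gene. Dots are absent from 6 of the 8 promoters and lie toward the 3′ end of most genes.

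Methylated regions lay in the bodies. Of the 66 regions, 64 were in a gene body, 2 touched a promoter and 0 lay in the flanks alone. None of the body regions reached within 5 kb of the most 5′ start of its gene, although those of Tet1 at 19.4 kb and Dnmt3a at 89.8 kb lay over a later annotated start. The Dnmt3a 89.8 kb region had a peak in 3 Aid+/+ clones, 1 Aid-/- clone, 1 ES line and 0 MEFs. It therefore does not give the Dnmt3a count with every start. Dnmt3a regions with a peak in every iPS clone and every MEF were centred at 43.7, 95.7 and 101.7 kb. In all, 26 regions were centred in the last 25% of the gene length and 6 in the first 25%. The summit fell in a coding exon for 31 regions, in an intron for 29 and in an untranslated region for 4, and 46 overlapped coding sequence. CpG was denser than the mean of the gene body in 59 of 66 regions. The paper states that CpG density can influence MBD-seq. No matching shares over all regions are given for the positions, summits, coding overlaps or CpG excess. These counts are therefore not shown to be particular to these genes. The median was 2.14 CpG per 100 bp at these genes and 2.22 over the 151119 regions on sequences named in the reference genome.

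Peaks covered a median of 5.26% of the 8 windows in the Aid+/+ clones, 4.02% in the Aid-/- clones, 3.67% in ES lines and 1.71% in MEFs, beside medians of 2.42%, 2.14%, 1.74% and 0.789% over all 22367 genes, with or without a peak. The 8 genes differed in this. In Aid+/+ clones their percentiles among all genes ran from 47.6 (Dnmt3l), 51.0 (Tet1) and 51.8 (Tet2) to 90.0 (Dnmt1). Of the 66 regions, 5 had a peak in all 14 samples (7.58%, beside 10.3% of all regions) and 19 had one in a single sample (28.8%, beside 21.9%). The 5 belonged to Tet3 and Dnmt3a. The strongest was the Tet3 76.5 kb region near the 3′ end (chr6:83314455-83315916), with 456, 222, 245 and 167 tags in Aid+/+ clones, 239, 163, 100 and 286 in Aid-/- clones, 95, 61 and 251 in ES lines and 334, 249 and 184 in MEFs. The Dnmt3a 95.7 kb region (chr12:3901109-3902278) had 249, 165, 200 and 133 tags in Aid+/+ clones, 160, 164, 101 and 162 in Aid-/- clones, 149, 98 and 213 in ES lines and 166, 139 and 110 in MEFs. In both, the ranges of raw tags overlapped between all 4 groups. After scaling to library size, the Dnmt3a 95.7 kb region had 13.8 to 15.7 tags per 1000000 filtered tags in Aid+/+ clones and 6.04 to 8.47 in MEFs, without overlap. That scaling put the median of all regions compared at a log2 difference of 1.30 (Aid+/+ iPS minus MEF). With TMM, which sets the typical region to no change, this region had a log2 difference of -0.27 (adjusted p = 0.171 in edgeR).

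The remaining genes had no region common to all samples. In Dnmt1 the strongest region was at 44.2 kb (chr9:20711213-20715006), which runs over the 3′ end of the gene. It held 119, 77, 124 and 283 tags in Aid+/+ clones, 153, 186, 139 and 81 in Aid-/- clones, 49 and 177 in ES lines 1 and 3 and 69 and 77 in MEFs 1 and 2, with no peak in ES line 2 or MEF 3. Dnmt3l had a single region in more than 1 sample, at 15.9 kb (chr10:77520065-77521148), with 55, 99, 101 and 74 tags in Aid+/+ clones, 51, 63, 59 and 55 in Aid-/- clones, 29, 17 and 79 in ES lines, 22 and 30 in MEFs 1 and 2, and no peak in MEF 3. The strongest Dnmt3b region, at 9.6 kb in an intron (chr2:153484378-153485257), had 25, 58, 46 and 61 tags in Aid+/+ clones, 31, 48, 24 and 18 in Aid-/- clones, 37, 16 and 87 in ES lines and 19 and 18 in MEFs 2 and 3.

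For Uhrf1 the strongest region lay at 14.8 kb in a coding exon (chr17:56456988-56458020), with 53, 36, 52 and 61 tags in Aid+/+ clones, 52, 55, 35 and 41 in Aid-/- clones, 27 and 68 in ES lines 1 and 3 and 39 in MEF 2. For Tet1 it lay at 86.0 kb (chr10:62274977-62276731), with 111, 85, 109 and 147 tags in Aid+/+ clones, 130, 88, 76 and 55 in Aid-/- clones, 33 and 185 in ES lines 1 and 3 and 104, 111 and 44 in MEFs. For Tet2 it lay at 64.2 kb in a coding exon (chr3:133142677-133143693), with 36, 47, 46 and 50 tags in Aid+/+ clones, 31, 20, 28 and 29 in Aid-/- clones, 14 and 29 in ES lines 1 and 3 and 29 in MEF 2. ES line 2, whose list was the shortest of the 14, lacked a peak at all 3 of these regions.

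The first comparison asked whether loss of Aid changed methylation of these genes. No region of the 8 genes was a DMR (a stretch common to the peaks of all samples of one group and free of peaks in the other) in either direction. The Aid+/+ clones had 23 common stretches, of which 20 (87.0%, beside 82.5% of all stretches) were CMRs (common to both groups), and the share of all stretches that were DMRs was 0.412% for Aid+/+ and 0.106% for Aid-/- cells. The tag counts of the 20 regions with a peak in all 8 clones did not pass the threshold either: 0 were called in edgeR's quasi-likelihood test with Benjamini-Hochberg adjustment over 50901 regions, of which 0.00196% were higher and 0% lower in Aid+/+ cells. At an unadjusted p under 0.05 in edgeR the count of these regions was 0, beside 1743 of all 50901, and the DESeq2 Wald test called 0. With the clone series as a block, 2 of the 20 regions had an unadjusted p under 0.05 in edgeR, beside 3420 of all 50901. They were Dnmt3a 101.7 kb, with a log2 difference of -0.92, and Dnmt3a 107.1 kb, and 0 passed after adjustment. Under this block the difference between genotypes comes only from the series that held both, and clones of the other series do not inform it. In that series the naming style of the file headers also differed between the genotypes, so genotype and this processing difference cannot be told apart.

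The region nearest to a difference was at the 3′ end of Dnmt3a, the de novo methyltransferase. At 107.1 kb, in an annotated untranslated region (chr12:3912482-3913716), the Aid+/+ clones had 23, 56, 74 and 51 tags and the Aid-/- clones 25, 16, 30 and 17. The groups overlapped, and the log2 difference of 0.76 gave an unadjusted p of 0.0578 in edgeR and did not pass after adjustment. With the clone series as a block the difference was 1.32 (unadjusted p = 0.0171 in edgeR), without Aid+/+ clone 1 it was 1.02 (0.0028), without Aid-/- clone 3 it was 1.08 (0.0133) and with peak length as an offset it was 0.28 (0.352). No setting passed after adjustment, with adjusted p-values of 0.199 or above.

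Bases covered by peaks were then compared gene by gene. Dnmt3a had 4254, 3758, 4950 and 6592 covered bases in the Aid+/+ clones and 3553, 3515, 3638 and 3235 in the Aid-/- clones, so that the groups did not overlap. The means were 4888 ± 1236 and 3485 ± 175 (SD, n = 4 each), and the exact two-sided permutation p of 0.0286, the smallest that 4 against 4 allows, became 0.949 after adjustment over 16480 genes. It was the single one of the 8 genes with separated groups, where 1.53% of all genes were higher and 0.461% lower in Aid+/+ cells. Exact permutation p-values of the other 7 genes ran from 0.371 to 0.857. The separation was absent with tags in peaks scaled to the filtered tags of the library, with peaks of p at most 1e-10 and with equal numbers of peaks per sample. Among libraries whose file headers carry the same MACS version and naming style, 1 Aid+/+ clone (4254 bases) stood against 3 Aid-/- clones (3553, 3515 and 3235). Within the 1 series that held both genotypes the Aid+/+ clones had 4950 and 6592 bases and the Aid-/- clones 3553 and 3515. Header naming style also differed between those Aid+/+ and Aid-/- clones, and their lists held 100339 and 110943 against 91536 and 91985 peaks. Genotype cannot be told apart from these differences in that series.

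**Figure D2:**
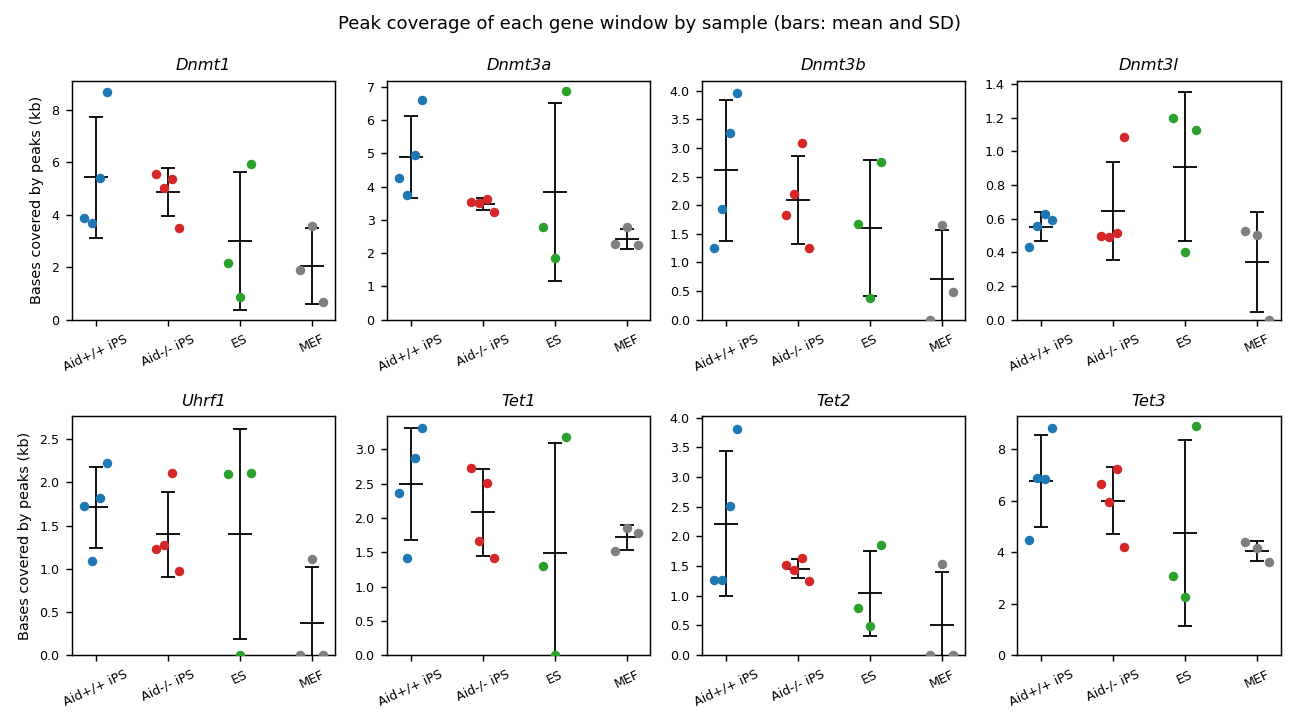
Bases covered by peaks in each gene window, in kb, for every sample, with the group mean and SD as bars. Dnmt3a is the gene whose Aid+/+ and Aid-/- clones do not overlap, and MEFs have the lowest mean at 7 of the 8 genes, Tet1 being the exception.

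The second comparison set iPS cells against MEFs. Among the 23 stretches of the Aid+/+ clones, 6 were DMRs absent from MEFs (26.1%), beside 28% of all stretches, and 8 were CMRs (34.8%, beside 38.8%). None of the 9 MEF stretches was a DMR of MEFs, beside 6.48% of all MEF stretches. The share of DMRs was thus near that of the genome.

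The 6 DMRs lay in 5 genes, and their summits fell in a coding exon (3), an intron (2) or an untranslated region (1). At Dnmt1, the maintenance enzyme, the 41.1 kb region (chr9:20715458-20717034, summit in a coding exon) had 118, 99, 137 and 120 tags in Aid+/+ clones, 119, 93, 87 and 56 in Aid-/- clones and 72, 32 and 69 in ES lines. No MEF had a peak there, and this was the single one of the 6 with a peak in all 11 pluripotent samples. The Dnmt1 23.9 kb region (chr9:20732780-20733984, summit in an intron) had 19, 34, 43 and 65 tags in Aid+/+ clones, 29, 22 and 35 in Aid-/- clones 1 to 3 and 46 in ES line 3.

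At Uhrf1, the partner of Dnmt1, the 8.8 kb region (chr17:56451111-56451992, coding exon) had 37, 42, 64 and 45 tags in Aid+/+ clones, 23, 36, 34 and 23 in Aid-/- clones and 32 and 50 in ES lines 1 and 3. At Dnmt3b, the other de novo enzyme, the 34.5 kb region (chr2:153509167-153510173, intron) had 18, 29, 57 and 39 tags in Aid+/+ clones, 23, 27 and 27 in Aid-/- clones 1 to 3 and 38 in ES line 3. The Dnmt3a 107.1 kb region given above was also without a peak in MEFs and had 31 tags in ES line 3. At Tet3, which oxidises methylcytosine, the 71.1 kb region (chr6:83320076-83321154, coding exon) had 36, 46, 57 and 55 tags in Aid+/+ clones and 43 and 32 in Aid-/- clones 2 and 3. Neither MEFs nor ES lines had a peak at that last region.

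**Figure D3:**
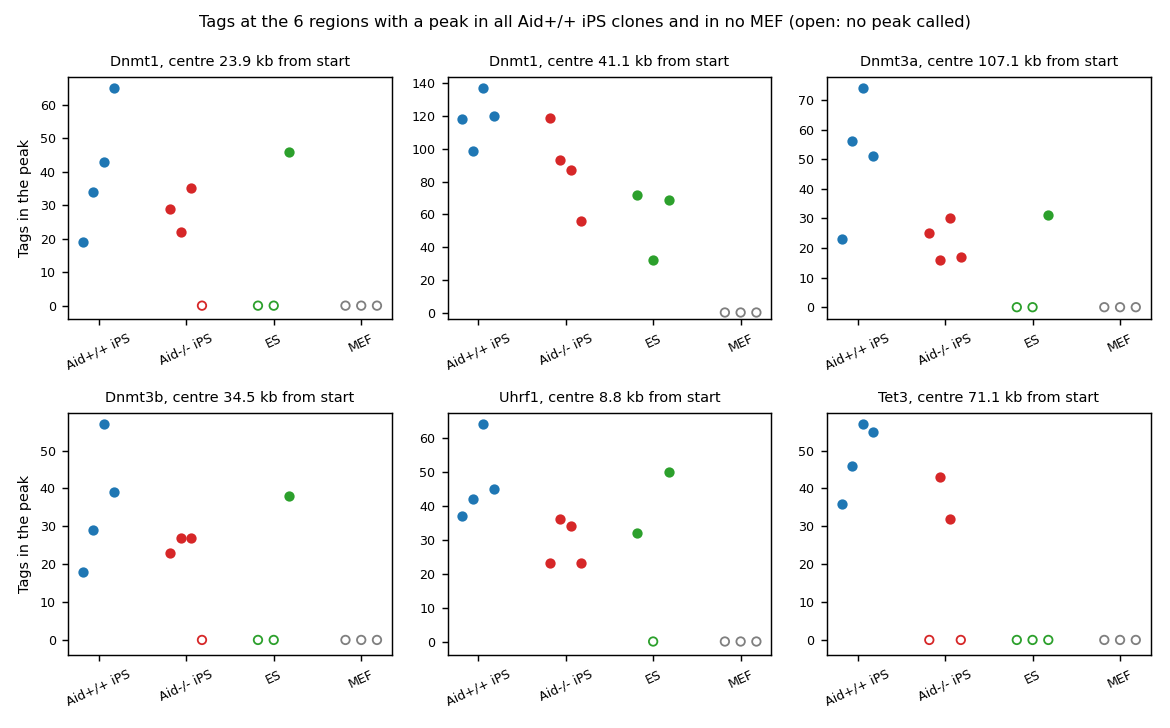
Tags in the peak of each sample at the 6 regions with a peak in all Aid+/+ iPS clones and in no MEF. Filled points are called peaks and open points at 0 are samples without a call. The Dnmt1 41.1 kb region is the one with filled points in all 3 ES lines.

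The DMR count rested on the lists. With the same number of most significant peaks in every sample (33694), the count was 1 DMR of iPS cells and 1 of MEFs, beside 10.9% and 21.5% of all stretches. It was 11 without Aid+/+ iPS clone 1, 10 without Aid+/+ iPS clone 2 and 10 without MEF 2, where 38.2%, 29.5% and 40.02% of all stretches were DMRs of iPS cells.

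Covered bases were higher on average in iPS cells than in MEFs at all 8 genes, as at 81.5% of all genes. The groups did not overlap at 3 genes, all higher in iPS cells (Dnmt1, Dnmt3a and Tet3), and at 0 in the other direction, beside 30.6% and 5.02% of 16466 genes. Dnmt1 had 3893, 3699, 5409 and 8678 covered bases in the Aid+/+ clones and 1886, 3559 and 675 in MEFs. Tet3 had 4453, 6890, 6832 and 8815 in the Aid+/+ clones and 4377, 4160 and 3631 in MEFs, and Dnmt3a had 2279, 2772 and 2249 in MEFs. At Dnmt1 and Tet3 the lowest clone stood just above the highest MEF. Means were 5420 ± 2303 bases in Aid+/+ clones and 2040 ± 1448 in MEFs for Dnmt1, 4888 ± 1236 and 2433 ± 294 for Dnmt3a and 6748 ± 1786 and 4056 ± 384 for Tet3 (SD, n = 4 and n = 3). Exact two-sided permutation p-values were 0.0857, 0.0571 and 0.0571 (the smallest that 4 against 3 allows is 0.0286), and 0.200, 0.163 and 0.163 after adjustment over all genes. With equal numbers of peaks Tet3 turned to a difference of -952 bases and stood lower in iPS cells together with Tet1, beside 20.3% of genes lower and 7.58% higher, and the groups overlapped at Dnmt1 and Dnmt3a. The count of separated genes was 5 without Aid+/+ iPS clone 1, 5 without clone 2 and 6 without MEF 2, beside 47.2%, 34.1% and 44.9% of all genes higher in iPS cells in the same settings.

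Where both iPS cells and MEFs had peaks, tag counts could be compared at 8 regions. After TMM normalisation, which sets the typical region to no change, 1 region was higher and 4 were lower in iPS cells in edgeR, beside 19.5% and 23.7% of 23412 regions. The Dnmt3a 43.7 kb region (chr12:3849203-3850196) had 102, 88, 106 and 97 tags in Aid+/+ clones and 40, 32 and 25 in MEFs, without overlap. Its log2 difference was 0.95 ± 0.25 (SE) with an adjusted p of 0.00934 in edgeR. The call was lost without MEF 3 (0.76, adjusted p = 0.0627 in edgeR) and with peak length as an offset (0.79, adjusted p = 0.0522). With peaks of p at most 1e-10 this region was not among the 6 tested, of which 0 were called higher in iPS cells.

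The 4 regions on the lower side were 1 in Tet1, 1 in Dnmt3a and 2 in Tet3. The Tet1 19.4 kb region over the second start, whose tags are given above, had a log2 difference of -1.63 ± 0.36 (adjusted p = 0.00318 in edgeR). The Dnmt3a 101.7 kb region (chr12:3907139-3908266), with 81, 61, 46 and 33 tags in Aid+/+ clones and 127, 79 and 95 in MEFs, had a log2 difference of -1.59 ± 0.24 (adjusted p = 0.000182 in edgeR). The Tet3 76.5 kb and 65.9 kb regions had log2 differences of -0.63 ± 0.20 and -0.63 ± 0.23 (adjusted p = 0.0208 and 0.0418 in edgeR). Leaving out Aid+/+ clone 2, 3 or 4, or MEF 1 or 3, lost the 65.9 kb call (adjusted p = 0.0823 to 0.129 in edgeR). So did peak length as an offset (0.180) and peaks of p at most 1e-10 (0.0899). The 76.5 kb call was lost without Aid+/+ clone 2 or 3 or MEF 1 (0.0688 to 0.0903) and with that offset (0.134). At 65.9 kb (chr6:83325214-83326366) the tags were 338, 160, 181 and 110 in Aid+/+ clones and 205, 146 and 182 in MEFs, and raw counts overlapped between the groups at all 4 regions. The count of calls was 3 without Aid+/+ iPS clone 2, without clone 3 and without MEF 1.

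Directions at these regions depended on the scaling. With the filtered tags of the library as its size, the median of all regions moved from 0.05 to 1.30 on the log2 scale, and the calls were 6 higher and 0 lower at these genes and 18464 higher and 1351 lower over all regions, against 4557 and 5548 with TMM. The Dnmt3a 43.7 kb region was then 2.20 higher in iPS cells and passed, the Tet3 76.5 kb and 65.9 kb regions turned to 0.61 and 0.66, and the Tet1 19.4 kb and Dnmt3a 101.7 kb regions stayed lower (-0.44 and -0.31) without passing. On the fold enrichment of the peak caller, tested with limma, the Dnmt3a 43.7 kb region was the single call (1.27, adjusted p = 0.00202). No set of libraries with the same MACS version and header naming style held Aid+/+ iPS clones together with MEFs or ES lines, so cell type and this processing difference cannot be told apart.

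**Figure D4:**
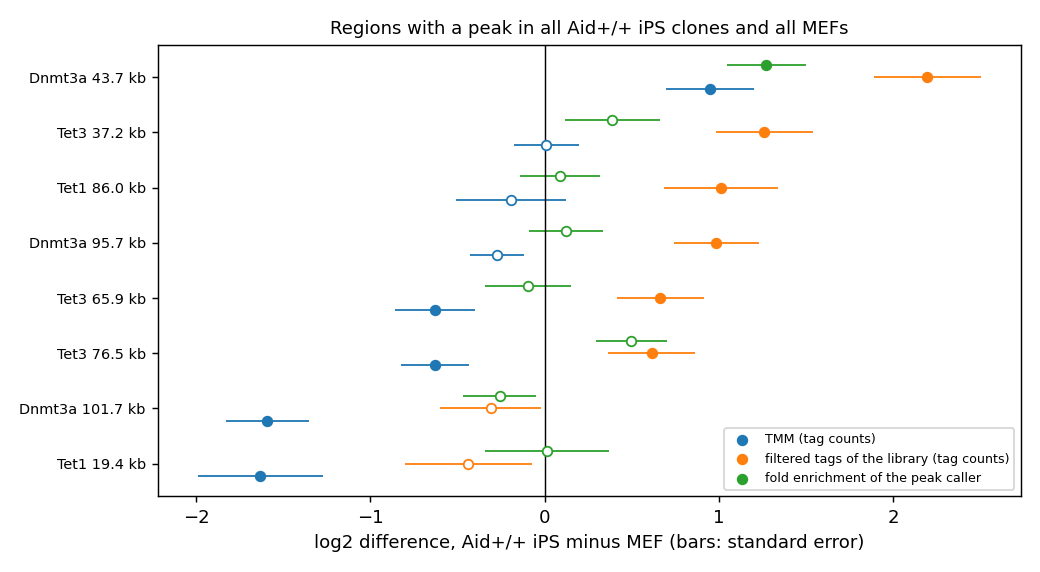
log2 difference (Aid+/+ iPS minus MEF, bars are standard errors) at the 8 regions with a peak in all Aid+/+ iPS clones and all MEFs, with TMM, with the filtered tags as library size and on fold enrichment. Filled points passed an adjusted p of 0.05. The Dnmt3a 43.7 kb region is the one that is filled and above 0 on all 3 scales.

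Tet3 also held the region with the highest CpG density of the 66, at 73.4 kb (chr6:83317655-83318945, 3.87 CpG per 100 bp). It had 272, 203 and 178 tags in MEFs and 113 and 78 in Aid+/+ clones 1 and 2, and no peak in Aid+/+ clones 3 and 4. The Aid-/- clones 1, 2 and 4 had 76, 75 and 95 tags and ES line 3 had 200. The adjoining 74.8 kb region (chr6:83316092-83317645) had 70, 78 and 105 tags in Aid+/+ clones 1, 3 and 4. Aid-/- clones 1 to 3 had 76, 67 and 76 there, ES line 3 had 241 and MEFs had no peak. Whether the caller divided this stretch differently between samples was not tested. Both regions were chosen for mention after their values were seen, and carried no test because peaks were missing from clones.

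The third comparison set iPS cells against ES cells. Out of 23 stretches, 1 was a DMR (the Tet3 71.1 kb region) and 9 were CMRs (39.1%, beside 40.3% of all stretches), beside 2.03% of all stretches that were DMRs, and 0 of the 9 ES stretches was a DMR of ES cells, beside 0.181%. That region was no DMR with peaks of p at most 1e-10. The count was 6 without ES line 3 and 2 without Aid+/+ iPS clone 1, where 29.1% and 6.27% of all stretches were DMRs of iPS cells.

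Covered bases ranged widely over the ES lines. Bases covered in the 8 windows together were 15.1, 6.25 and 32.7 kb in ES lines 1, 2 and 3, against 19.7 to 38.0 kb in Aid+/+ clones, 16.9 to 26.1 kb in Aid-/- clones and 8.81 to 17.2 kb in MEFs. Per 10000 peaks of the library the same windows held 4.07, 2.97 and 4.32 peaks in ES lines, 3.51 to 4.48 in Aid+/+ clones, 3.30 to 4.37 in Aid-/- clones and 3.09 to 4.15 in MEFs, so the ranges overlapped. Groups were separated in covered bases at 0 of 8 genes, beside 3.22% of 16817 genes higher and 0.149% lower in iPS cells. Without ES line 3 the count was 5, all higher in iPS cells, beside 42.3% of all genes. Without ES line 2 it was 1 (Dnmt3l, lower in iPS cells), beside 3.11% of all genes lower.

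Tag counts at the 9 regions with a peak in all Aid+/+ clones and all ES lines gave 0 calls in edgeR, beside 0.00412% of 24299 regions higher and 0.0123% lower in iPS cells. At an unadjusted p under 0.05 in edgeR the count was 0, beside 2448 of all 24299, and the DESeq2 Wald test called 0. Log2 differences ran from -0.33 at the Dnmt3b 9.6 kb region to 0.58 at the Dnmt3l 15.9 kb region. At the Dnmt1 41.1 kb region the difference was 0.47 (adjusted p = 0.642 in edgeR).

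Other genes of the pathway were examined in the same way. Of 22 other genes linked to DNA methylation, 1 (Pcna, the replication clamp) had a promoter peak in every Aid+/+ and every Aid-/- clone. In every MEF 2 had one (Pcna and Tdg, a DNA glycosylase). The shares of all genes were 5.91% for Aid+/+ clones, 5.96% for Aid-/- clones and 4.55% for MEFs. Covered bases separated Aid+/+ from Aid-/- clones at 1 of 18 tested (Usp7, higher in Aid+/+, beside 1.53% of all genes). They separated iPS cells from MEFs at 5 of 18, of which Dmap1, Mbd4 and Trim28 were higher and Dppa3 and Mbd3 lower in iPS cells, beside 30.6% higher and 5.02% lower over all genes. They separated iPS from ES cells at 1 of 19 (Dmap1, higher in iPS cells), beside 3.22% of all genes.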

How the data were processed

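MBD-seq peak lists of 14 samples were used. Per the labels and the file headers, the authors enriched methylated DNA from fragments, sequenced single reads of 75 bp (1 header records 74), mapped them to mm9 (NCBI build 37) with BWA 0.5.9rc1 and called peaks per sample, with no control, with MACS (1.4.1, or 1.4.0rc2 in some headers) at p = 1e-05, keeping at most 2 tags per position. The submitters' notes also name CASAVA 1.8.1. The deposited columns used were the tag count of each peak, its p-value on the caller's −log10 scale (by the authors) and its fold enrichment (a ratio, by the authors). Tag counts exist only where a peak was called, so a missing peak is not a count of 0.

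Genes came from GENCODE M1 on the same build. Peaks overlapping by at least 1 bp were merged. A stretch shared by peaks of all samples of a group was a DMR where the compared group had none and a CMR where each of its samples had one, as the study defined them. Regions were merged again for each pair of groups, so their ends can differ slightly from those printed. Tag counts of regions with a peak in every sample compared were tested with edgeR 4.0.16 (TMM, quasi-likelihood, Benjamini-Hochberg over all regions), with limma 3.58.1 and DESeq2 1.42.0 as alternatives, and standard errors are the log2 difference divided by the root of F. Covered bases were tested by exact two-sided permutation, adjusted over all genes. Scripts were tested on simulated data. Filtered tags per library (6654272 to 19603100) set the depth. Regions named are DMRs, regions with an adjusted p under 0.05, promoter regions and the strongest region of each gene. The members and lists were chosen with earlier results of these data known. The peaks at 1 further gene are not reported here.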

Additional observations from a re-analysis of the deposited data

Results flagged for a closer look

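Covered bases were compared within each group of 4 clones for the 8 genes, 16 groups in all, of which about 1 in 20 would be marked by chance. One was marked: Dnmt3l in Aid-/- iPS clone 4 had 1084 covered bases, against 492 to 516 in the other 3 clones. The clone had a single peak at the gene, as did the others.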

How the results depend on the processing

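For Aid+/+ against Aid-/- iPS cells, DMRs and tag differences stayed at 0 under every alternative, the clone-series block included, and the 1 gene with separated coverage (Dnmt3a) became 0 with tags scaled to filtered tags, with peaks of p at most 1e-10 and with equal peak numbers. Against MEFs, the 5 tag calls became 2 with peak length as an offset, 1 on fold enrichment and 2 with peaks of p at most 1e-10, and 3 to 5 when one sample was left out. The 6 DMRs became 2 with equal peak numbers and 6 to 11 with one sample left out. The 3 separated genes became 7 with tags scaled to filtered tags, all higher in iPS cells, beside 56.9% of all genes higher and 6.83% lower. They became 2 (both lower in iPS cells) with equal peak numbers, beside 20.3% of all genes lower, and 3 to 6 with one sample left out. Against ES cells, the 1 DMR became 0 with peaks of p at most 1e-10 and 1 to 6 with one sample left out, and the 0 separated genes became 0 to 5. Promoter peaks in every sample of a group rose from 0 to 2 genes with the start of every transcript. Reversals against MEFs were the Tet1 19.4 kb region (0.013 on fold enrichment), the Tet3 76.5 kb region (0.61 with filtered tags, 0.50 on fold enrichment), the Tet3 65.9 kb region (0.66 with filtered tags) and the covered bases of Tet3 (-952 with equal peak numbers). The cause of these changes was not tested. No paired analysis was possible because the labels give no replicate numbers shared between groups, apart from the clone series used as the block.

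Peaks are called one library at a time and carry no tag count where no call was made, so a missing peak can lie just under the threshold. The smallest called peaks held 10 to 16 tags in the 14 libraries, and counts here are counting data without molecular identifiers. The edgeR comparisons include regions with a call in every sample, which leaves out those that are present in one group alone.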
